A study of Drosophila melanogaster with 18 samples.

Results

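The 8 genes described here encode the factors that hold RNA polymerase II near the start of a gene and release it. They are the 4 subunits of NELF (*Nelf-A*, *NELF-B*, *TH1* and *Nelf-E*), both subunits of DSIF (*spt4* and *Spt5*) and both subunits of P-TEFb (*CycT* and *Cdk9*). They were chosen by name, and all 8 were found among the 17575 genes of both deposited expression tables. The deposited editing table lists 117 sites in their mRNAs, of 91502 sites in all.

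After starting a transcript, RNA polymerase II can stop a short way downstream, a step called promoter-proximal pausing. DSIF binds the polymerase and NELF joins it to hold it in place. P-TEFb, a kinase made of Cyclin T and Cdk9, phosphorylates NELF, DSIF and the polymerase, after which NELF leaves and DSIF travels on as an elongation factor. Pausing has been studied widely in *Drosophila*, where it was found at heat shock genes and at many genes of development.

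The data come from the fat body, which stores lipid and glycogen and runs much of larval metabolism, of *Drosophila* in the third instar. There are 18 libraries in 6 groups of 3, each made from fat bodies pooled from several male larvae. All groups carry *dcg-Gal4*, which drives UAS transgenes in the fat body. For RNA-seq, control (*dcg-Gal4/+*) is compared with *4EHP* RNAi (*dcg-Gal4/uas-4EHP RNAi*), and *lacZ* RNAi (*dcg-Gal4/uas-lacZ RNAi*) with *NELF-E* RNAi (*dcg-Gal4/uas-NELF-E RNAi*). 4EHP is a protein that binds the mRNA cap without starting translation. For TRIBE, which marks the RNAs a protein binds by A-to-I editing read as A-to-G, 4EHP was fused to a hyperactive ADAR catalytic domain (*dcg-Gal4/uas-4EHP-adar*) and compared with a cap-binding mutant of the same fusion (*dcg-Gal4/uas-4EHPmutant-adar*, here 4EHP W114A-ADAR). The *NELF-E* RNAi crosses were kept at a lower temperature than the others, so temperature and RNAi cannot be told apart in that comparison.

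The RNA-seq libraries held between 59919651 and 173606468 reads on genes. The values are CPM (the reads of a gene, with each library brought to the same total), and scaled CPM is CPM divided by a factor for each library that sets the median gene to a common level. Scaling mattered here because the libraries differed in how many genes took the reads, most of all in control replicate 3 and *lacZ* RNAi replicate 2. Control replicate 3 had 7853 genes above 1 CPM, against 10370 to 10719 in the other libraries of its table, and a scaling factor of 0.4897 against 1.072 to 1.401. *lacZ* RNAi replicate 2 had 9335 genes above 1 CPM and a factor of 0.4994. *lacZ* RNAi replicate 3 shared this in part (9866 genes, factor 0.7295) and correlated most closely with replicate 2 (0.935), so within *lacZ* RNAi it is not settled which library departs from the group. Without *lacZ* RNAi replicate 1, 3432 transcripts were called for *NELF-E* RNAi, against 323 without replicate 2, 110 without replicate 3 and 372 with all. With CPM as deposited, the median log2 fold change of all transcripts was 0.68 for *4EHP* RNAi and 0.65 for *NELF-E* RNAi, and scaling brought these medians to 0.15 and −0.05. The 6 fat body markers were present in every library and held 14.4% to 36.7% of its reads. The 9 testis markers summed to 26.3 CPM in control replicate 3 and 295 and 660 CPM in *lacZ* RNAi replicates 2 and 3, against 1271 to 2172 CPM in the other 9 libraries, and no gene of this list was at 0 in a whole group. The part of these markers in the results below was not tested. Fewer cells of a type and less RNA per cell cannot be told apart in such bulk samples.

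The targeted transcripts come first, because they check the labels. *Nelf-E* encodes the NELF subunit that carries an RNA recognition motif (FBgn0017430, chromosome 3L, 8599442 to 8600879, minus strand). It was at 29.9, 25.5 and 28.4 scaled CPM in *lacZ* RNAi replicates 1, 2 and 3, and at 25.6, 32.0 and 20.5 scaled CPM in the libraries labelled *NELF-E* RNAi. These ranges overlapped, with the highest value of the 6 in a library labelled *NELF-E* RNAi. The log2 fold change was −0.12 (SE 0.25, 95% interval −0.69 to 0.46, adjusted p = 0.782 from limma) with scaling and 0.60 with CPM as deposited. An exact permutation test of scaled CPM gave p = 0.7, where 3 against 3 allow no two-sided p below 0.1. *Nelf-E* was therefore not detectably lower in the libraries labelled *NELF-E* RNAi. Reads from the hairpin itself, where it matches the gene, would be counted with *Nelf-E*, and 176 bases of its exons overlap *CG43078* on the other strand. The part of either in these values was not tested.

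The transcript of 4EHP, listed as *eIF4EHP*, was at 19.9, 19.8 and 11.3 scaled CPM in control replicates 1, 2 and 3. In the libraries labelled *4EHP* RNAi it was at 17.0, 10.6 and 13.4. The groups overlapped, since control replicate 3 lay below 2 of the 3 libraries labelled *4EHP* RNAi. With scaling its log2 fold change was −0.28 (SE 0.36, adjusted p = 0.725 from limma), and it was 0.25 with CPM as deposited. It was −0.50 (adjusted p = 0.267 from limma) if control replicate 3 was left out, and leaving out each library gave −0.50 to −0.14. With limma's array weights it was −0.58 (adjusted p = 0.0353), in a fit that called 25.4% of all transcripts. With limma's weights by REML, which did not converge, it was −0.57 (adjusted p = 0.00561), where 41.3% were called. The call thus depends on the weights. Its exons share 447 bases with *Syx1A* on the same strand, so its values are uncertain.

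All 8 transcripts were detected in every library. Per kilobase of exon, *spt4* had the highest mean level over the 12 libraries, 34.3 CPM per kb (18.5 to 63.3), followed by *Nelf-E* at 23.2 (5.69 to 32.2). *Cdk9* (16.5), *Spt5* (13.8), *CycT* (11.1) and *TH1* (11.0 CPM per kb) formed a middle group. *NELF-B* (3.34) and *Nelf-A* (3.05 CPM per kb) were the lowest. Neighbours in this order overlapped in their ranges over libraries except *TH1* and *NELF-B*, where *TH1* was higher in 12 of 12 libraries. Within NELF, whose subunits sit in one complex, *Nelf-E* and *TH1* thus lay above *NELF-B* and *Nelf-A* in mean transcript level per kb. These are steady-state mRNA levels as deposited, and those of *spt4*, with only 457 exon bases, depend most on the annotated length.

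**Figure D1:**
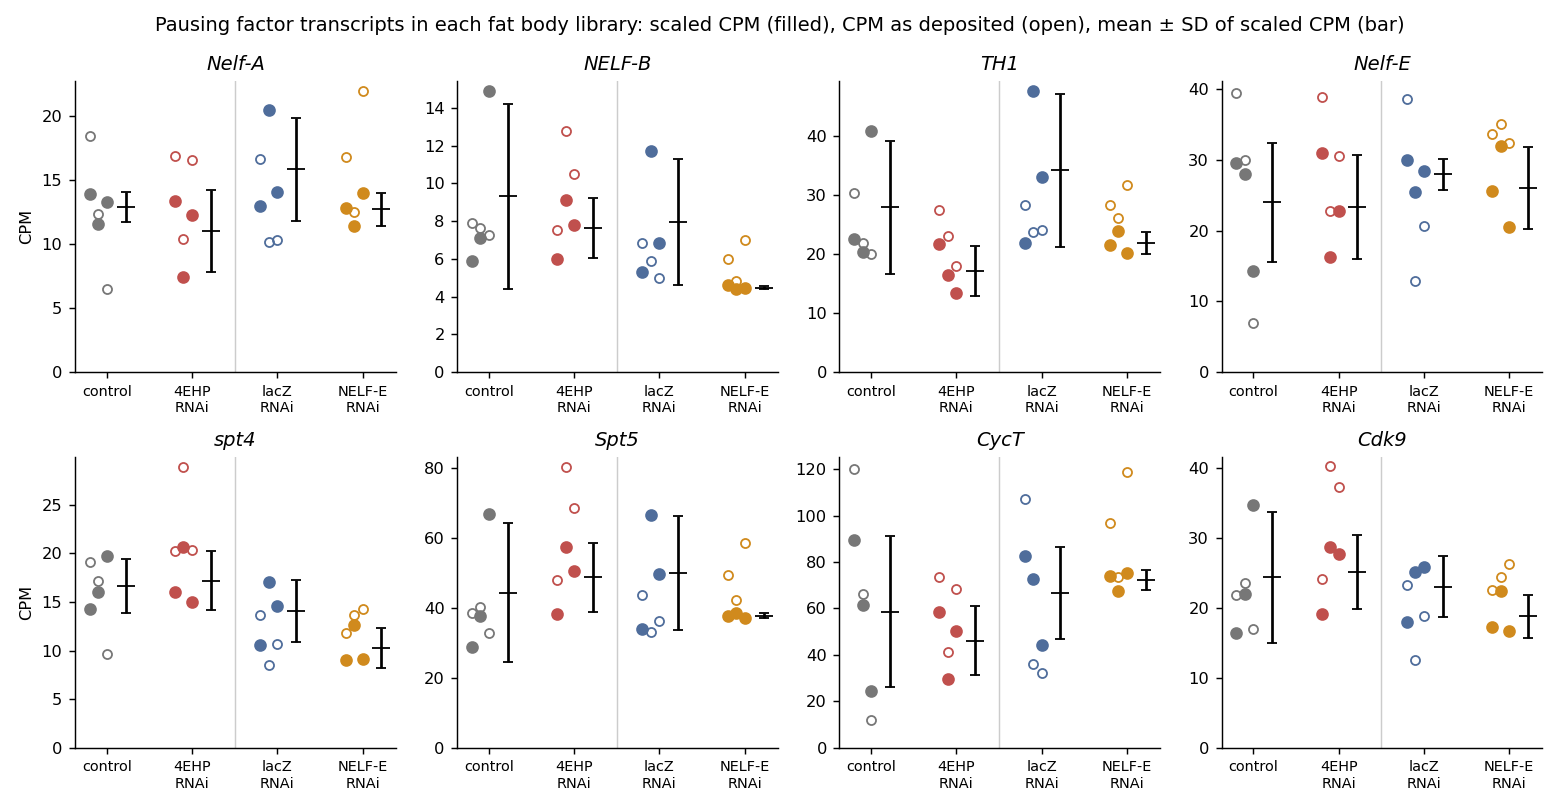
Levels of the 8 pausing factor transcripts in the 12 RNA-seq libraries, by group (x axis), in CPM (y axis, from 0, own range for each gene). Filled circles are scaled CPM, open circles CPM as deposited, and bars the mean ± SD of scaled CPM (n = 3). The 3 libraries labelled *NELF-E* RNAi lie between 4.41 and 4.59 scaled CPM for *NELF-B*, below all 3 *lacZ* RNAi libraries, while for the other 7 genes the groups of each comparison overlap.

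None of the 8 transcripts passed the test in either RNAi comparison. With limma and Benjamini-Hochberg adjustment over all transcripts, 0 of 8 were called for *4EHP* RNAi, where 0.0% of the 8584 tested transcripts were, and 0 of 8 for *NELF-E* RNAi, where 4.44% of 8371 were. At an unadjusted p under 0.05, limma gave 0 of the 8 in both comparisons, against 850 of 8584 transcripts (9.9%) for *4EHP* RNAi and 1603 of 8371 (19.1%) for *NELF-E* RNAi. edgeR gave 0 of the 8 in both at either threshold, and called 0.0% and 4.67% of all transcripts (11.5% and 19.5% unadjusted). DESeq2 called 0 of the 8 in both, where it called 4.56% and 12.7% of all transcripts, and gave 0 and 1 of the 8 unadjusted (13.3% and 22.6% of all transcripts). The median log2 fold change of the 8 was −0.10 for *4EHP* RNAi (all transcripts 0.15) and −0.31 for *NELF-E* RNAi (all transcripts −0.05). With CPM as deposited these medians were 0.45 and 0.41, against 0.68 and 0.65 over all transcripts, also lower. This did not hold for *4EHP* RNAi without control replicate 3 (0.01 against −0.01) or with array weights (−0.04 for both). Leaving out control replicate 3 gave 0 of the 8 called, where 6.61% of all transcripts were, and leaving out *lacZ* RNAi replicate 2 gave 0, where 3.79% were.

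*Nelf-A*, the subunit that contacts the polymerase (FBgn0038872, chromosome 3R, 21223704 to 21229512, plus strand), was at 13.9, 11.6 and 13.3 scaled CPM in control and 13.4, 7.40 and 12.3 in the libraries labelled *4EHP* RNAi. It was at 13.0, 20.5 and 14.1 in *lacZ* RNAi and 12.8, 11.4 and 14.0 in the libraries labelled *NELF-E* RNAi. Replicate 2 was the low one of *4EHP* RNAi and the high one of *lacZ* RNAi, and both pairs of groups overlapped. The log2 fold changes were −0.25 (SE 0.33, 95% interval −1.05 to 0.56) for *4EHP* RNAi and −0.27 (SE 0.25, −0.84 to 0.29) for *NELF-E* RNAi, and 0.29 and 0.43 with CPM as deposited. The second was −0.05 without *lacZ* RNAi replicate 2, and the first −0.02 without *4EHP* RNAi replicate 2. Exons of *Nelf-A* share 364 bases with *lncRNA:CR44265* on the other strand, which makes its counts uncertain.

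*NELF-B* (FBgn0027553, chromosome X, 7725996 to 7728361, minus strand), another subunit of the complex, was at 5.90, 7.12 and 14.9 scaled CPM in control and 5.98, 9.14 and 7.78 in the libraries labelled *4EHP* RNAi. Here control replicate 3 stood highest of the 6. In *lacZ* RNAi it was at 5.31, 11.7 and 6.85, and in the libraries labelled *NELF-E* RNAi at 4.59, 4.41 and 4.44. It was the only one of the 8 whose groups did not overlap on the scaled values, with all 3 libraries labelled *NELF-E* RNAi below *lacZ* RNAi, as was so for 17.7% of the transcripts tested. The log2 fold change was −0.65 (SE 0.30, 95% interval −1.33 to 0.04, adjusted p = 0.287 from limma, exact permutation p = 0.1) and 0.00 with CPM as deposited, where the groups overlapped. Without *lacZ* RNAi replicate 1 it was −0.87 with an adjusted p of 0.0309 from limma, in a fit that called 41.2% of all transcripts. Without *lacZ* RNAi replicate 2 it was −0.34 (adjusted p = 0.501 from limma). For *4EHP* RNAi the log2 fold change was −0.17 (SE 0.42), and it was 0.36 with CPM as deposited and 0.23 if control replicate 3 was left out.

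*TH1* (FBgn0010416, chromosome X, 16388820 to 16391438, minus strand), the fly counterpart of human NELF-C/D, was at 22.6, 20.3 and 40.9 scaled CPM in control and 21.7, 16.4 and 13.4 in the libraries labelled *4EHP* RNAi. It was at 21.9, 47.6 and 33.0 in *lacZ* RNAi and 21.6, 23.9 and 20.2 in the libraries labelled *NELF-E* RNAi. Its highest values were in control replicate 3 and *lacZ* RNAi replicate 2, the libraries with the fewest genes above 1 CPM. The log2 fold changes were −0.63 (SE 0.39, 95% interval −1.57 to 0.31, adjusted p = 0.695 from limma) and −0.56 (SE 0.31, −1.27 to 0.15, adjusted p = 0.353), and −0.07 and 0.17 with CPM as deposited. Without control replicate 3 the first was −0.30 (adjusted p = 0.508 from limma). Without *lacZ* RNAi replicate 2 the second was −0.26 (adjusted p = 0.644 from limma). Without *lacZ* RNAi replicate 1 the second was −0.84 (adjusted p = 0.0266 from limma).

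*Nelf-E* in the *4EHP* comparison was at 29.6, 28.0 and 14.3 scaled CPM in control, and at 30.9, 16.3 and 22.7 in those labelled *4EHP* RNAi. Control replicate 3 was the lowest of the 6 and *4EHP* RNAi replicate 1 the highest, so neither group lay above the other. The log2 fold change was −0.02 (SE 0.42, 95% interval −1.04 to 1.00, adjusted p = 0.985 from limma), an interval that reaches 1 on the log2 scale in either direction. It was −0.30 (adjusted p = 0.547 from limma) if control replicate 3 was left out. With CPM as deposited it was 0.53, where the controls were at 39.5, 30.0 and 6.99 CPM and the libraries labelled *4EHP* RNAi at 38.9, 22.8 and 30.6 CPM.

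In DSIF, *spt4* (FBgn0028683, chromosome 2R, 12633589 to 12634172, plus strand) encodes the small subunit. It was at 14.3, 16.0 and 19.7 scaled CPM in control and 16.0, 20.6 and 15.0 in the libraries labelled *4EHP* RNAi. It was at 10.6, 17.0 and 14.6 in *lacZ* RNAi and 9.00, 12.6 and 9.12 in the libraries labelled *NELF-E* RNAi. Only *NELF-E* RNAi replicate 2 overlapped *lacZ* RNAi. The log2 fold changes were 0.04 (SE 0.30) for *4EHP* RNAi and −0.42 (SE 0.26, 95% interval −1.01 to 0.18, adjusted p = 0.397 from limma) for *NELF-E* RNAi, and 0.60 and 0.28 with CPM as deposited. The second was −0.25 without *lacZ* RNAi replicate 2.

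*Spt5* (FBgn0040273, chromosome 2R, 19437483 to 19441898, plus strand), the large DSIF subunit that clamps the polymerase and is phosphorylated by P-TEFb, was at 28.8, 37.6 and 66.7 scaled CPM in control and 38.1, 57.4 and 50.6 in the libraries labelled *4EHP* RNAi. It was at 33.9, 66.4 and 49.7 in *lacZ* RNAi and 37.6, 38.5 and 37.2 in the libraries labelled *NELF-E* RNAi. Control replicate 3 and *lacZ* RNAi replicate 2 were again the highest, while the libraries labelled *NELF-E* RNAi differed little among themselves. The log2 fold changes were 0.20 (SE 0.42, 95% interval −0.81 to 1.21) and −0.34 (SE 0.30, −1.03 to 0.35), and 0.78 and 0.39 with CPM as deposited. Without control replicate 3 the first was 0.57 (adjusted p = 0.229 from limma). The second was −0.09 without *lacZ* RNAi replicate 2 and −0.60 (adjusted p = 0.0662 from limma) without *lacZ* RNAi replicate 1.

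In P-TEFb, *CycT* (FBgn0025455, chromosome 3L, 17551004 to 17557788, minus strand) encodes Cyclin T, which activates the kinase. It was at 89.6, 61.7 and 24.6 scaled CPM in control and 58.3, 29.5 and 50.4 in the libraries labelled *4EHP* RNAi. It was at 82.8, 72.6 and 44.4 in *lacZ* RNAi and 73.8, 67.4 and 75.5 in the libraries labelled *NELF-E* RNAi. Its spread in control was the widest of the 8, with a mean of 58.6 ± 32.6 scaled CPM (SD, n = 3). The log2 fold changes were −0.22 (SE 0.56, 95% interval −1.58 to 1.15) and 0.16 (SE 0.32, −0.56 to 0.89), and 0.35 and 0.90 with CPM as deposited. Without control replicate 3 the first was −0.70 (adjusted p = 0.281 from limma). The second was −0.09 without *lacZ* RNAi replicate 3.

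*Cdk9* (FBgn0019949, chromosome 2R, 22636063 to 22637727, minus strand), the kinase subunit, was at 16.4, 22.0 and 34.8 scaled CPM in control and 19.1, 28.8 and 27.7 in the libraries labelled *4EHP* RNAi. It was at 18.0, 25.2 and 25.9 in *lacZ* RNAi and 17.3, 22.4 and 16.7 in the libraries labelled *NELF-E* RNAi. The groups overlapped in both comparisons. The log2 fold changes were 0.09 (SE 0.39, 95% interval −0.85 to 1.02) and −0.27 (SE 0.25, −0.85 to 0.30), and 0.66 and 0.44 with CPM as deposited. On the deposited scale *spt4*, *Spt5* and *Cdk9* each lay higher in all 3 libraries labelled *4EHP* RNAi than in all 3 controls, as did 23.5% of the transcripts tested there.

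**Figure D2:**
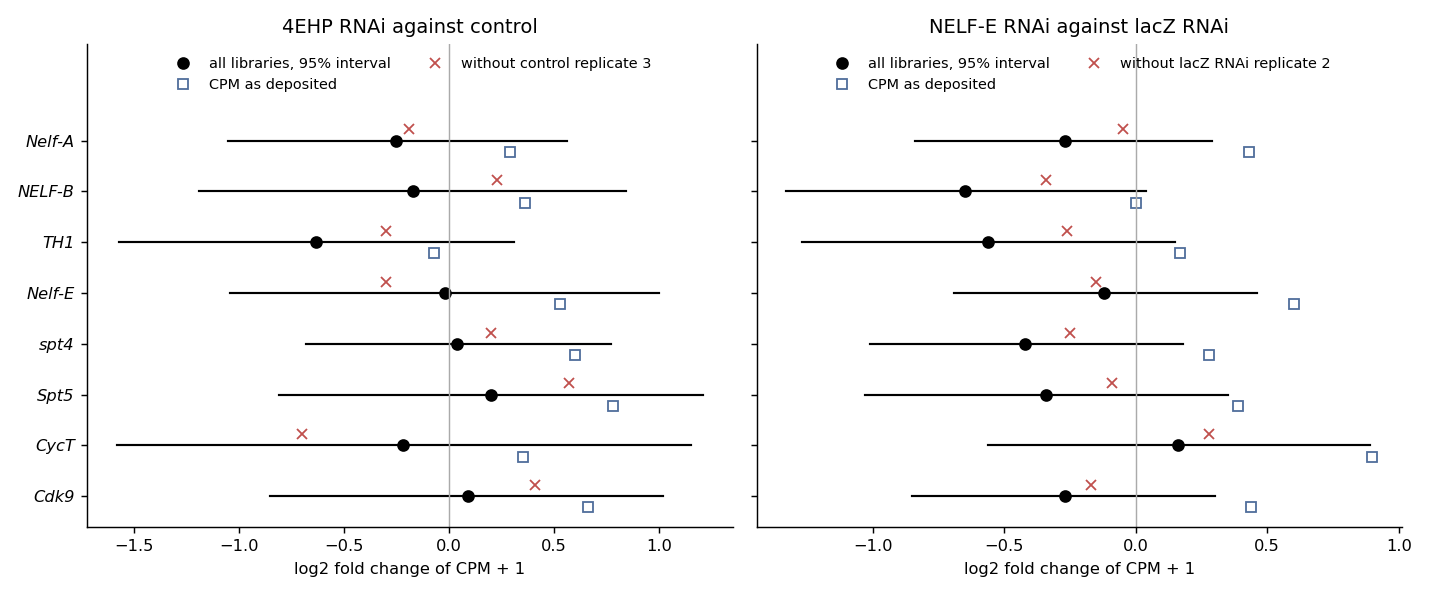
Log2 fold change of CPM + 1 (x axis) of the 8 transcripts in *4EHP* RNAi against control (left) and *NELF-E* RNAi against *lacZ* RNAi (right). Black points with lines are the fit of scaled CPM with its 95% interval, crosses the same fit without control replicate 3 (left) or *lacZ* RNAi replicate 2 (right), and squares CPM as deposited. Each of the 16 intervals includes 0, and all squares but that of *TH1* on the left lie at or to the right of 0.

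The call for *NELF-E* RNAi depends on how the libraries are weighted. With limma's array weights, which give less weight to libraries that deviate, 6 of the 8 were called, in a fit that called 54.3% of all transcripts. *NELF-B* (−0.53, adjusted p = 0.0128), *TH1* (−0.60, adjusted p = 0.00641), *spt4* (−0.56, adjusted p = 0.0117), *Spt5* (−0.39, adjusted p = 0.0399) and *Cdk9* (−0.50, adjusted p = 0.0171) were then lower on the log2 scale by limma. *CycT* was higher, by 0.64 (adjusted p = 0.0108 from limma). *Nelf-A* and *Nelf-E* were not called with these weights. For *4EHP* RNAi the same weights called 0 of the 8, where 25.4% of all transcripts were called. Weights estimated by REML, which did not converge, called 2 of the 8 for *4EHP* RNAi (41.3% of all transcripts) and 6 for *NELF-E* RNAi (77.4%).

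The transcripts of the 8 factors did not all vary in the same direction from library to library. Over the 12 libraries, on log2 scaled CPM with the mean of each table removed, the kinase subunits ran in opposite directions, with a Pearson r of −0.86 between *CycT* and *Cdk9* (Spearman −0.85). *Spt5* followed *Cdk9* (r = 0.91) and ran against *CycT* (r = −0.78). These correlations stood at −0.87, 0.91 and −0.92 over the 10 libraries without control replicate 3 and *lacZ* RNAi replicate 2. *NELF-B* followed *Spt5* (r = 0.90, and 0.82 over the 10 libraries) and *Cdk9* (0.80 and 0.82). *Nelf-E* instead followed *CycT* (0.73 and 0.60) and ran against *Spt5* (−0.67 and −0.60). Among NELF subunits, *NELF-B* and *TH1* had r = 0.76 over 12 libraries and −0.01 over the 10, so that value rests on those 2 libraries. Other NELF pairs moved the other way, *Nelf-E* and *TH1* from −0.19 to 0.57 and *Nelf-A* and *Nelf-E* from 0.20 to 0.62. The libraries share groups, tables and the scaling, and these values are descriptions. They were not computed with CPM as deposited. On that scale both kinase subunits were lowest of the *4EHP* table in control replicate 3 (*CycT* 12.1 and *Cdk9* 17.0 CPM). Both were highest of the *NELF-E* table in *NELF-E* RNAi replicate 3 (119.0 and 26.3 CPM). *Cdk9* was highest of the *4EHP* table in *4EHP* RNAi replicate 2 (40.3 CPM), where *CycT* was at 41.3 CPM. Their opposite direction thus depends on the scaling.

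**Figure D3:**
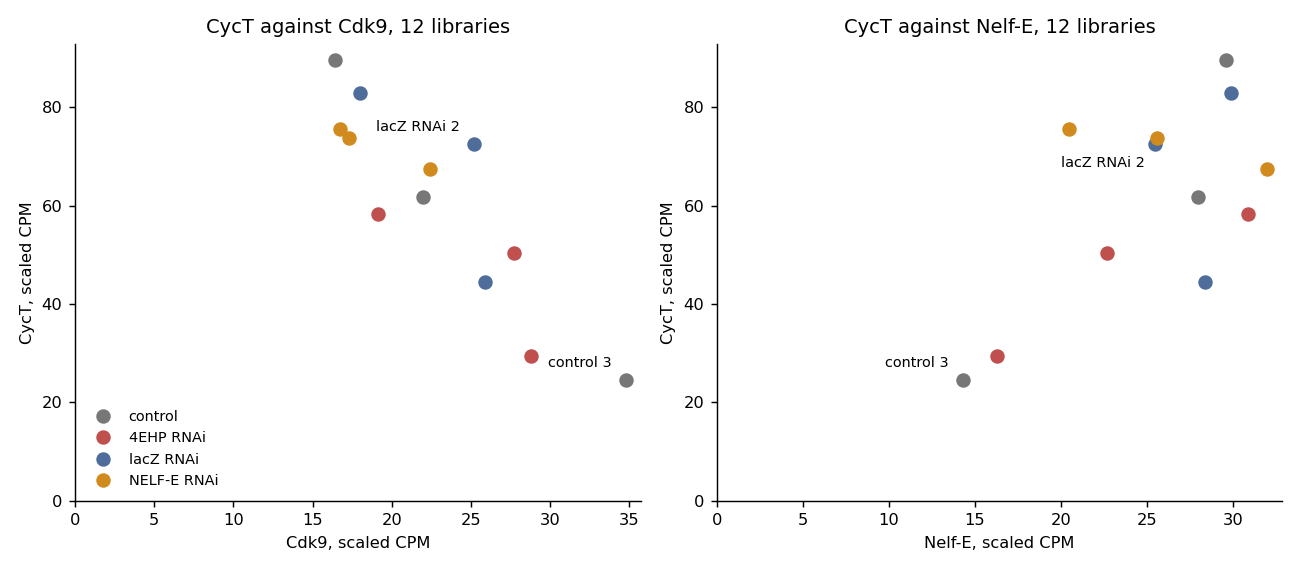
Scaled CPM of *CycT* (y axis) against that of *Cdk9* (left, x axis) and *Nelf-E* (right, x axis), one point for each of the 12 RNA-seq libraries, coloured by group, all axes from 0. *CycT* is lowest and *Cdk9* highest in control replicate 3 (24.6 and 34.8 scaled CPM), and *CycT* is highest where *Cdk9* is lowest, in control replicate 1 (89.6 and 16.4).

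Of 8161 other genes with a mean of at least 5 CPM in both tables, those whose pattern was most like *Nelf-E* over the 12 libraries were *holn1* (r = 0.92), *Kr-h2* (0.92), *coil* (0.91), *Nf-YA* (0.91) and *I-2* (0.91). Without control replicate 3 and *lacZ* RNAi replicate 2 their r was 0.89, 0.94, 0.87, 0.87 and 0.89. *coil* and *Nf-YA* were less alike within the *NELF-E* table alone, at 0.61 and 0.59. Of the other 7 factors, *CycT* came nearest to *Nelf-E*, at rank 375 of 8161, and the other 3 NELF subunits stood at ranks 3380 (*Nelf-A*), 5120 (*TH1*) and 7600 (*NELF-B*). Over the 10 libraries this order changed, with *Nelf-A* (r = 0.62) at rank 1070, *CycT* (0.60) at 1222, *TH1* (0.57) at 1413 and *NELF-B* (−0.44) at 7056.

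Around the 8 factors, 61 of 62 listed genes of the same step were found, among them regulators of P-TEFb, the super elongation and PAF complexes, Integrator, TFIIH and the polymerase itself. For *4EHP* RNAi, 0 of the 58 tested were called by limma (0.0% of all transcripts), and 6 had an unadjusted p under 0.05 (9.9% of all transcripts). With edgeR 0 were called (0.0%) and with DESeq2 2 of 57 (4.56%), so these counts are no result about the list. The median log2 fold change of the listed genes was 0.10 (all transcripts 0.15). For *NELF-E* RNAi, 2 of 56 rose and 0 fell, with a median of −0.08 (all transcripts −0.05), where 4.44% of all transcripts were called (167 rose and 205 fell), so the count is no result about the list.

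Of the listed genes, which do not include the 8 factors, *Ssrp* and *Rpb12* rose in the libraries labelled *NELF-E* RNAi. *Ssrp*, a subunit of the histone chaperone FACT that opens nucleosomes ahead of the polymerase, was at 29.2, 25.5 and 28.8 scaled CPM in *lacZ* RNAi and 99.2, 107.0 and 108.0 in the libraries labelled *NELF-E* RNAi. These groups did not overlap, as held upwards for 8.1% of the transcripts tested and for 7 of the 56 listed genes. Its log2 fold change was 1.87 (SE 0.25, adjusted p = 0.00651 from limma). *Rpb12*, a small subunit shared by the nuclear RNA polymerases, was at 20.6, 27.2 and 22.4 against 44.0, 55.0 and 57.8 scaled CPM, a log2 fold change of 1.13 (SE 0.25, adjusted p = 0.0458 from limma). *Ssrp* just missed the threshold without *NELF-E* RNAi replicate 3 (adjusted p = 0.0505), and *Rpb12* lost its call without *lacZ* RNAi replicate 3 (0.188) and without *NELF-E* RNAi replicate 1 (0.143), 2 (0.186) or 3 (0.268). *Rpb10*, a further shared subunit, was at 11.6, 19.3 and 16.5 against 26.1, 35.1 and 27.8 scaled CPM, with a log2 fold change of 0.89 (SE 0.27, adjusted p = 0.117 from limma).

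*Ssrp* had a similar value in the other comparison, which has its own control libraries. It was at 35.2, 36.3 and 28.5 scaled CPM in control and 120.0, 106.0 and 131.0 in those labelled *4EHP* RNAi, with a log2 fold change of 1.81 (SE 0.31, adjusted p = 0.126 from limma, 0.00691 without control replicate 3 and 1.7e-06 with DESeq2). *Rpb10* was at 14.2, 14.5 and 23.2 against 47.4, 67.6 and 45.6 scaled CPM (1.59, SE 0.35, adjusted p = 0.197 from limma, 0.00934 without control replicate 3). *dre4*, the other FACT subunit, was at 70.4, 72.8 and 46.9 against 128.0, 120.0 and 149.0 scaled CPM (1.07, SE 0.34, adjusted p = 0.362 from limma). In all 3 the groups did not overlap, which held upwards for 7.78% of the transcripts tested and for 8 of the 58 listed genes. The marker sums are of CPM as deposited, unlike the values above. On that scale gut, muscle and haemocyte markers were higher in all 3 libraries labelled *4EHP* RNAi than in all 3 controls. So were 23.5% of the transcripts tested. Scaling would raise control replicate 3 most (factor 0.4897), and whether the sums then separate the groups was not tested. Salivary gland markers (112 to 581 against 13.8 to 560 CPM) and testis markers (1427 to 2172 against 26.3 to 1689 CPM) overlapped. The 6 gut markers summed to 27.7 to 336 CPM in the libraries labelled *4EHP* RNAi and 0.854 to 10.8 in control, the 6 muscle markers to 46.0 to 154 and 9.76 to 27.3, and the 6 haemocyte markers to 78.2 to 128 and 28.9 to 67.1 CPM. The 6 fat body markers summed to 143679 to 222161 against 239708 to 367238 CPM, and no gene of these lists was at 0 in a group. For *NELF-E* RNAi the groups overlapped in the sum of every marker list, with gut markers at 0.233 to 92.0 against 0.291 to 38.1 CPM. The part of the markers in these values was not tested. The 4 regulators of P-TEFb had a median log2 fold change of −0.51 for *4EHP* RNAi and −0.30 for *NELF-E* RNAi, and none of them was called. The median of the 11 tested polymerase subunits was 0.41 and 0.18, and that of the 4 genes of the super elongation complex −0.47 and −0.01.

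TRIBE asked which mRNAs the cap-binding form of 4EHP touches. For each site the table gives A and G reads in 3 libraries of each fusion, and the G share is G reads of A and G reads. The median depth over all sites was 82 to 93 reads in the 4EHP-ADAR libraries and 52 to 72 in the 4EHP W114A-ADAR libraries, so a share in 1 library is read coarsely. All 8 mRNAs had at least 2 listed sites. *CycT* had 32, *Spt5* 30, *TH1* 16, *Nelf-A* 15, *Cdk9* 10, *Nelf-E* 7, *NELF-B* 5 and *spt4* 2 sites. Over the 9961 genes with a site, the median number of sites was 6. The authors chose the listed sites by comparing these same libraries, so that more G in 4EHP-ADAR than in 4EHP W114A-ADAR over the list is no result. Of the 117 sites, 93 lay in coding sequence, 10 in 5′ UTRs and 14 in 3′ UTRs.

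The sites fell into 2 sorts. At 110 of the 117 the pooled G share was under 5%, with at most 3.08%. In these, 75 sites had a single G read over the 3 4EHP-ADAR libraries, 31 had 2, 3 had 3 and 1 had 7, and 107 had 0 in 4EHP W114A-ADAR. Together they had 153 G reads of 39903 with 4EHP-ADAR, against 3 of 27665 with 4EHP W114A-ADAR, a difference that the choice of sites builds in. The other 7 sites, 5.98% of the 117, had a share of at least 5%, as 5.43% of all 91502 sites did.

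**Figure D4:**
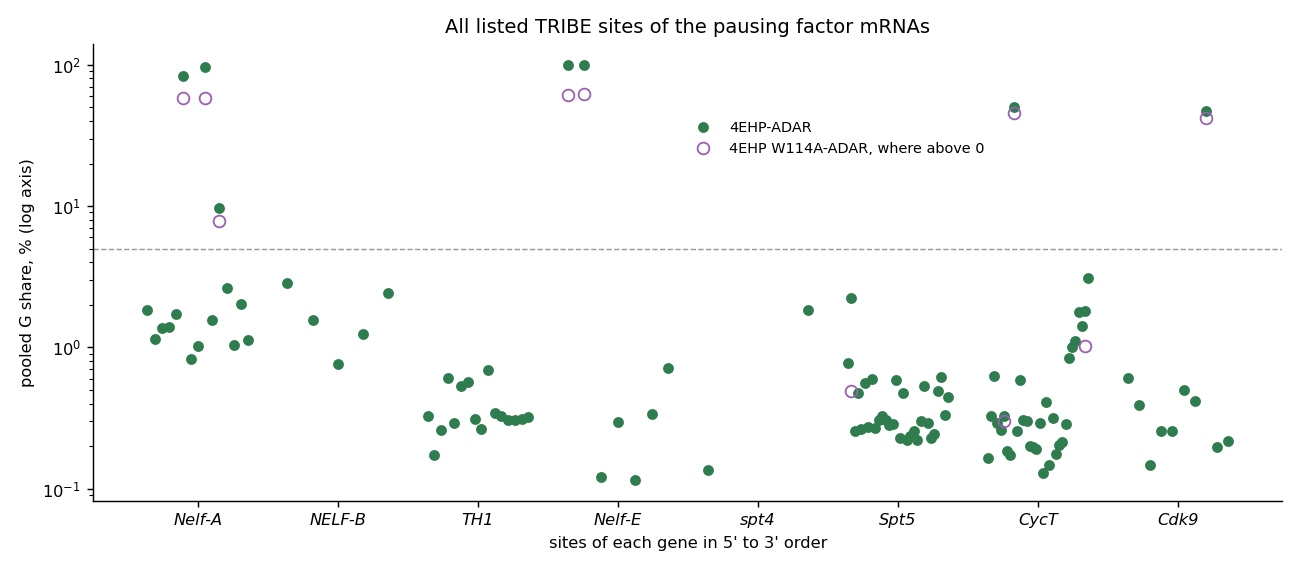
Pooled G share (y axis, percent, log axis) of each of the 117 listed sites in the 8 mRNAs, in 5′ to 3′ order within each gene (x axis). Filled circles are 4EHP-ADAR and open circles 4EHP W114A-ADAR where it had a G read, and the dashed line marks 5%. The 7 sites above the line have open circles close to or below their filled ones, while 107 of the 110 below it have none.

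Of these 7, *Nelf-E* held 2, both in coding sequence at the third base of a codon and 30 bases apart, so that they share reads. At position 8600392 of chromosome 3L all of 157, 287 and 219 reads had G in 4EHP-ADAR libraries 1, 2 and 3, a share of 100% in each. In 4EHP W114A-ADAR the share was 63.9%, 67.1% and 56.5%, of 169, 143 and 186 reads. At position 8600422 the shares were 99.3%, 100% and 100% in 4EHP-ADAR and 62.2%, 61.9% and 60.6% in 4EHP W114A-ADAR. The pooled difference was 38.0 and 38.3 percentage points, and the fusions did not overlap at either site.

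With a quasi-binomial model over all 69874 sites with at least 20 reads in every library, both *Nelf-E* sites were called (adjusted p = 0.00105 for each, dispersion moderated with limma), and they were the only 2 of the 97 tested sites in the 8 mRNAs to be called, where 0.093% of all tested sites were. Without 4EHP-ADAR library 2 the adjusted p of each was 0.0564, and without library 3 it was 0.0509 and 0.0531. The study had singled out *NELF-E* on these same libraries, so the call is not independent evidence. A G in the genome of a line gives the same reads as editing, and these cannot be told apart here. The same holds for the *Nelf-A*, *CycT* and *Cdk9* sites below. Within 10 kb of the pair no other listed site had a share of at least 5%, and within 50 kb there were 8 in 2 genes, the nearest 31525 bases away. Of those 8, 2 were at 95% or more in every 4EHP-ADAR library, with 70.4% and 71.6% pooled in 4EHP W114A-ADAR. The other 5 sites of *Nelf-E* had 8 G reads of 3455 with 4EHP-ADAR, against 0 of 2136 with 4EHP W114A-ADAR, and no share was over 0.709%.

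*Nelf-A* held 3 of the 7 sites. At position 21227763 of chromosome 3R the share was 96.4%, 97.7% and 94.4% in 4EHP-ADAR and 50%, 55.9% and 73.3% in 4EHP W114A-ADAR. The fusions did not overlap, and the pooled difference of 38.0 points was as large as at *Nelf-E*, on 136 and 108 pooled reads. It was not called by the quasi-binomial model (adjusted p = 0.133). Fisher's exact test on pooled reads (adjusted p = 1.81e-11) and limma on the empirical logit (2.04e-05) called it, among 1.07% and 0.7% of all tested sites. Fisher's test treats pooled reads as independent. It leaves out the spread between libraries, here 50% to 73.3% in 4EHP W114A-ADAR, so its p is too small where libraries differ. At position 21225991 the share was 72.5%, 88.9% and 92.6% against 55.0%, 62.5% and 58.3%, and the library with the fewest reads had 12, too few for the test. At position 21228047 6 of 62 pooled reads had G in 4EHP-ADAR (9.68%, 95% Wilson interval 4.51 to 19.5), against 3 of 38 with 4EHP W114A-ADAR, also too few for the test.

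Both P-TEFb mRNAs held a single site of this sort, close to 50% in either fusion. In *CycT*, position 17555059 of chromosome 3L, the share was 47.0%, 50.4% and 54.0% in 4EHP-ADAR and 37.0%, 50% and 53.0% in 4EHP W114A-ADAR. In *Cdk9*, position 22636972 of chromosome 2R, it was 46.3%, 50.6% and 43.8% against 46.1%, 33.6% and 45.1%. The fusions overlapped at both sites, and neither was called (adjusted p = 0.521 for each from the quasi-binomial model with limma's moderated dispersion). *NELF-B*, *TH1*, *spt4* and *Spt5* had no site of at least 5%.

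**Figure D5:**
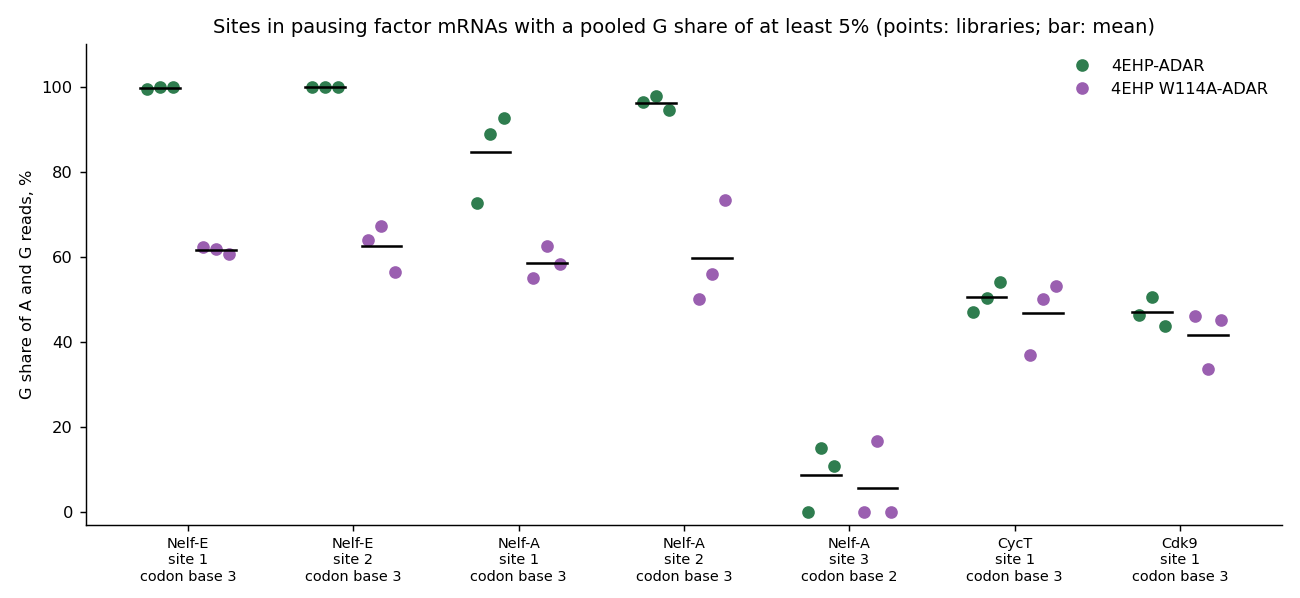
G share (y axis, percent of A and G reads, from 0 to 100) in each library at the 7 sites with a pooled share of at least 5%, named by gene, number from the 5′ end and codon base (x axis). Points are the 3 libraries of each fusion and bars their means. At both *Nelf-E* sites the 4EHP-ADAR libraries lie at 99.3% to 100% and the 4EHP W114A-ADAR libraries at 56.5% to 67.1%, while at the *CycT* and *Cdk9* sites the fusions overlap.

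Sites of high and low share lay at different places in the codon, a description with no test. All 7 of the high sites were coding, and 6 of 7 (85.7%) fell on the third codon base, against 19 of the 86 coding low sites (22.1%). The same held over the whole table, where 69.2% of coding sites of at least 5% and 21.4% of those below it lay on the third base, counting each pair of site and gene once. Among the low sites, the one with the most G reads lay in the 5′ UTR of *Spt5*, at position 19437581 of chromosome 2R. It had 3, 2 and 2 G reads of 131, 103 and 82 in 4EHP-ADAR libraries 1, 2 and 3, a pooled share of 2.22% (95% Wilson interval 1.08 to 4.5). In 4EHP W114A-ADAR it had 1 of 204 reads (0.49%), and it was not called (adjusted p = 0.521 from the same model). The site was picked for its many G reads, from a list the authors chose by comparing these same libraries. Its G reads in all 3 4EHP-ADAR libraries and its difference between the fusions are therefore no result. The reads of 1 library are few, and these intervals cover counting error only.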

How the data were processed

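The authors deposited CPM values per gene (RNA-seq, 12 libraries) and, for TRIBE, the reads with each base at every site (6 libraries). The submitters' processing notes name STAR, featureCounts, DESeq2 and dm6. The strand setting of the counting is not given in the sources used here. The TRIBE reads were processed by the authors with FLEXBAR (trimming), HISAT2 (alignment) and JACUSA (site calls). TRIBE positions count from 0 in the deposited table, and 1 was added. The deposited binding score compares the fusions and was not used, so TRIBE sites were named by G share alone (at least 5% pooled in either fusion), where the rule as first written also named the site with the highest score. Library numbers of the TRIBE table were not matched to replicates.

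Reads behind the CPM values were recovered (99.909% to 100.0% of values came out whole). Each library's CPM values were scaled by median-of-ratios factors. Within each table limma 3.58.1 (R 4.3.3, moderated with a mean trend, two-sided) was run on log2(CPM + 1) of transcripts averaging at least 5 CPM, with Benjamini-Hochberg adjustment and a threshold of 0.05. A fold change on this scale understates that of low transcripts. Recovered counts were tested with edgeR 4.0.16 and DESeq2 1.42.0 (baseMean above 350) as alternatives. TRIBE sites with at least 20 reads in every library were fitted with a quasi-binomial model, its dispersion prior coming from sites whose variance was 5 or more, a choice made after values had been seen. Fisher's exact test, limma on the empirical logit and read minimums of 10 or 50 were tried as well. Coordinates, exon lengths and overlaps come from the BDGP6.54 annotation. No column of per-sample values was unmapped (0).

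The named transcripts are the 8 factors, both targeted transcripts, up to 15 listed genes per comparison past the threshold or, where fewer than 3 pass, the 3 with the smallest p, and the 5 genes most like *Nelf-E*. The 8 factors, the lists and the tests were chosen with earlier results of these data known. The numbers label separate samples, each pooled from several larvae. The tests were run on simulated data with 200 changed items before use. No sequences are printed.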

Additional observations from a re-analysis of the deposited data

How the results depend on the processing

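The RNA-seq fold changes and calls were recomputed with CPM as deposited, other pseudocounts (0.1, 5) and filters (none, 1 CPM). They were also recomputed with array weights, the replicate number as a block, edgeR, DESeq2 and each library left out. TRIBE sites were retested with the alternatives given above and with each library left out. The correlations between transcripts and the ranks by likeness to *Nelf-E* were computed on scaled CPM alone. With CPM as deposited the log2 fold changes changed sign for *4EHP* RNAi in *Nelf-A* (0.29), *NELF-B* (0.36), *Nelf-E* (0.53), *CycT* (0.35) and *eIF4EHP* (0.25), and for *NELF-E* RNAi in *Nelf-A* (0.43), *Nelf-E* (0.60), *TH1* (0.17), *spt4* (0.28), *Spt5* (0.39) and *Cdk9* (0.44), with *NELF-B* at 0.00. edgeR gave 0.04 and 0.00 for *Nelf-E*, and array weights gave 0.20 for *NELF-B* in *4EHP* RNAi. None of these was called. The causes were not tested, except that the deposited scale lifts the median of all transcripts.

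Leaving out each library in turn moved the log2 fold changes for *4EHP* RNAi between −0.41 and −0.02 for *Nelf-A*, −0.41 and 0.23 for *NELF-B*, −0.30 and 0.18 for *Nelf-E*, −0.11 and 0.20 for *spt4*, −0.05 and 0.57 for *Spt5*, −0.70 and 0.18 for *CycT* and −0.15 and 0.41 for *Cdk9*. For *NELF-E* RNAi the range was −0.28 to 0.03 for *Nelf-E* and −0.09 to 0.33 for *CycT*. Of the 8, 0 to 2 were called there, the 2 without *lacZ* RNAi replicate 1, in a fit that called 41.2% of all transcripts. Of the listed genes, 0 to 3 were called for *4EHP* RNAi with a library left out. The 3 of 58 came without control replicate 3 (6.61% of all transcripts called). For *NELF-E* RNAi it was 0 to 10, the 10 of 56 without *lacZ* RNAi replicate 1 (41.2%). Array weights gave 23 of 58 (25.4%) and 19 of 56 (54.3%). CPM as deposited gave 4 for *NELF-E* RNAi (510 of 8371 transcripts) and no filter 1 (294 of 16193). DESeq2 gave 2 of 57 for *4EHP* RNAi (4.56%). The 2 TRIBE sites called became 0 when sites of at least 95% were left out, which removes both *Nelf-E* sites, and 0 to 2 with a library left out. The *CycT* site difference ranged from −1.19 to 7.76 points.

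The array weights above were estimated gene by gene, a choice made after the default estimate by REML, which did not converge, had been seen. By REML, added after seeing the data, 2 of the 8 were called for *4EHP* RNAi (*TH1* −0.44, adjusted p = 0.0258, and *Spt5* 0.42, adjusted p = 0.0289, by limma, with *NELF-B* at 0.13) and 6 for *NELF-E* RNAi, with 31 and 43 of the listed genes, in fits that called 41.3% and 77.4% of all transcripts.

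With the replicate number as a block, 0 of the 8 were called in both comparisons, 0 and 3 of the listed genes, and 0 and 1022 of all transcripts (0 and 372 without it). The correlations of same-numbered libraries were 0.12, 0.011 and −0.167 for *4EHP* RNAi and 0.303, 0.185 and −0.214 for *NELF-E* RNAi. Those of differently numbered libraries were not set beside them, so whether the numbers pair the samples cannot be told. All transcripts called ranged over the settings from 0 to 3549 and from 110 to 6483. The correlations over 10 libraries were added after seeing the data.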
